A study of Homo sapiens with 18 samples.

Results

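The set described here holds 34 genes listed by symbol, namely 20 genes for the aminoacyl-tRNA synthetases of the cytosol, the transcription factor gene ATF4 and 13 genes commonly listed as ATF4 targets. Its starting point, the alanyl-tRNA synthetase gene AARS, was chosen by its measured values, which were higher in PEA2 than in PEA1 and lower in PEO4 than in PEO1, and the other genes were added by function. Of the 34 genes, 33 were among the 12853 genes of the RNA-seq table (20 synthetases, ATF4 and 12 targets), and DDIT3 was not analysed here.

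Expression was measured by RNA-seq of rRNA-depleted total RNA in 18 libraries from 3 pairs of human ovarian cancer cell lines, with 3 replicates per line. A2780 is a platinum-sensitive line and CP70 its resistant derivative obtained in culture. PEA1 (sensitive) and PEA2 (resistant), and PEO1 (sensitive) and PEO4 (resistant), are each a pair of high-grade serous (HGSOC) lines from 1 patient, established before and after resistance was seen in the clinic. By the study, PEA1 was taken before platinum treatment and PEA2 after relapse, whereas PEO1 and PEO4 were both taken after platinum treatment. The lines were grown in RPMI-1640 with added glutamine and fetal bovine serum, no drug exposure is named for these libraries, and each state of each pair is represented by 1 line, so that resistance and any other difference between the lines of a pair cannot be told apart.

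An aminoacyl-tRNA synthetase joins an amino acid to its tRNA. When an amino acid is short, uncharged tRNA activates the kinase GCN2 (gene EIF2AK4), which phosphorylates the initiation factor eIF2. General protein synthesis then falls while translation of the ATF4 mRNA rises, and ATF4, usually paired with a C/EBP protein, switches on genes for amino acid synthesis, amino acid transport, tRNA charging and stress. The kinases PERK (EIF2AK3), PKR (EIF2AK2) and HRI (EIF2AK1) feed into the same step in response to misfolded protein in the endoplasmic reticulum, double-stranded RNA and haem shortage, and since ATF4 is controlled largely in translation, its mRNA level is not a measure of its activity.

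The DNA element that ATF4 and C/EBP proteins bind together has the core letters TGATGNAA. It was searched on both strands of the RefSeq promoters (build GRCh38.p14, 250 bases before to 50 after each start, 300 bases in all), in which 28 of the 33 genes were matched (DARS, LARS, VARS, YARS and NUPR1 were not). At least 1 promoter of 11 of the 28 genes (39.3%) held it, against 1217 of 27305 genes in the same table (4.46%), and 17 of the 28 did not hold it. The element is the binding site of ATF4 itself and many of the genes were chosen as listed ATF4 targets, so that this share is not independent of the choice and is given as a description. The 11 were 7 of 16 synthetases (AARS, CARS, GARS, IARS, MARS, NARS and TARS) and 4 of 12 other members (ASNS, CHAC1, SLC7A1 and SLC3A2). The windows of 30 bases around the element are shown for 10 of them, to set the element beside the values of its genes; the element of SLC3A2 lay too near the end of its promoter for a full window. Capitals mark the element, and each window is written 5′ to 3′ on the strand that reads TGATG.
AARS: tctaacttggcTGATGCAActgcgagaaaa
CARS: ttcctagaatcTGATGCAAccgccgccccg
GARS: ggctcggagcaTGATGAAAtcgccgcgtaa
IARS: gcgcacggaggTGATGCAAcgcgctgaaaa
MARS: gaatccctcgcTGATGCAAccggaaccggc
NARS: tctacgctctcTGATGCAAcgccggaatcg
TARS: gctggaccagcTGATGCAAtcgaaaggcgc
ASNS: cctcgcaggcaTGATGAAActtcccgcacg
CHAC1: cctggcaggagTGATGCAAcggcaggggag
SLC7A1: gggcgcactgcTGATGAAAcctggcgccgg

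The windows of AARS (chr16:70289675-70289704), CARS (chr11:3057407-3057436) and IARS (chr9:92293692-92293721) were read on the plus strand, opposite to their genes. Those of GARS (chr7:30594834-30594863), MARS (chr12:57488053-57488082), TARS (chr5:33440956-33440985) and CHAC1 (chr15:40953251-40953280) were read on the minus strand, also opposite to their genes. Those of NARS (chr18:57621804-57621833), ASNS (chr7:97872458-97872487) and SLC7A1 (chr13:29595663-29595692) were read on the minus strand, which is the strand of the gene. In 6 of the 7 synthetases the open position N was C, giving TGATGCAA, and GARS held TGATGAAA; ASNS and SLC7A1 also held TGATGAAA. The stricter form TGATGCAA stood in promoters of 7 of 28 members and of 1.08% of all genes. The cyclic AMP response element TGACGTCA, which related factors bind, was found in promoters of 0 of the 28 members and of 2.25% of all genes, which says only that these letters were not in these windows.

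The libraries held 1344098 (a PEA1 library) to 7067336 (a PEO1 library) reads on the listed genes, so that 3 reads corresponded to between 2.18 and 0.452 CPM, the count of a gene scaled to a common library size. All levels below are log2 CPM as deposited, and levels are compared between lines for 1 gene, never between genes. A difference is a log2FC, the mean of the 3 resistant libraries minus the mean of the 3 sensitive ones, given with its standard error (SE) from a limma fit over all 18 libraries, and a gene was called at a false discovery rate (FDR) below 0.05. The carcinoma markers PAX8, WT1, EPCAM, KRT8, KRT18, KRT19 and MUC16 (7 of 7 in the table) summed to 2.24 to 3.13 CPM in A2780, 90.1 to 96.2 in CP70, 427 to 585 in PEA1, 2346 to 2651 in PEA2, 5351 to 6513 in PEO1 and 5414 to 7166 in PEO4. PAX8 was at 0 reads in every A2780 library and WT1 at 0 reads in every A2780 and CP70 library. Of 10 markers of immune, endothelial and stromal cells 4 were in the table (PTPRC, COL1A1, COL3A1 and DCN), and they summed to 508 to 718 CPM in A2780, 845 to 982 in CP70, 366 to 447 in PEA1, 23.3 to 28.8 in PEA2, 2.94 to 6.93 in PEO1 and 67.7 to 76.1 in PEO4. COL3A1 and DCN were at 0 reads in every PEA1 and PEA2 library, and PTPRC at 0 reads in every PEA1, PEO1 and PEO4 library. The carcinoma sum was thus higher in the resistant line of the A2780 and PEA pairs and overlapped in the PEO pair, the other sum differed within every pair, and their part in the differences below was not tested. By mean level, the other sum was mostly COL3A1 in A2780, CP70 and PEO4 (620, 870 and 64.5 CPM) and COL1A1 in PEA1 (394 CPM). Most of the small PEO1 sum was COL1A1 as well (4.55 CPM). In PEA2 COL1A1 was at 3.86 CPM, and most of the sum was PTPRC (log2FC 6.05 ± 0.48 in the PEA pair). The samples were cultured lines, and these sums alone do not show cells of another kind. In bulk RNA, fewer cells of a kind and less RNA per cell cannot be told apart.

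In the A2780 pair, which played no part in the choice of AARS and was therefore tested, most synthetase differences were towards lower levels in CP70. Of the 20 synthetases 7 were lower and 2 higher, and 11 did not pass the test; over all genes 17.7% were lower and 22.2% higher. The median log2FC was -0.24 for the synthetases and -0.02 for all genes, and 15 of the 20 log2FC values were negative. The largest decrease was that of NARS, which charges the tRNA for asparagine. Its levels were 8.39, 8.54 and 8.48 in A2780 and 7.33, 7.44 and 7.28 in CP70, without overlap (log2FC -1.12 ± 0.11 (SE), limma FDR 4.12e-08). CARS, for cysteine, was at 6.33, 6.19 and 6.01 in A2780 and 5.33, 5.40 and 5.55 in CP70 (log2FC -0.75 ± 0.14, limma FDR 0.000175). The CP70 libraries lay below all A2780 libraries here as well.

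The other decreases were smaller. EPRS, a double enzyme for glutamate and proline, fell by 0.72 on the log2 scale (limma FDR 8.45e-08), YARS (tyrosine) by 0.68 (FDR 1.11e-05), QARS (glutamine) by 0.64 (FDR 0.000477), MARS (methionine) by 0.62 (FDR 1.85e-05) and SARS (serine) by 0.36 (FDR 0.005). LARS and VARS, which charge the tRNAs for the branched-chain amino acids leucine and valine, went the other way. LARS was at 6.69, 7.04 and 7.00 in A2780 and 7.64, 7.66 and 7.65 in CP70 (log2FC 0.74 ± 0.10, limma FDR 4.29e-06), and VARS at 7.30, 6.92 and 7.15 in A2780 and 7.77, 7.68 and 7.77 in CP70 (log2FC 0.62 ± 0.11, limma FDR 0.000188). In both genes the 3 CP70 libraries exceeded the 3 A2780 libraries. IARS, for the third branched-chain amino acid isoleucine, had a log2FC of -0.22 ± 0.12 and did not pass the test (limma FDR 0.163).

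AARS itself was at 8.18, 7.98 and 8.08 in A2780 and 7.79, 7.80 and 7.92 in CP70. The 2 sets of libraries did not overlap, but the log2FC of -0.24 ± 0.10 missed the threshold (limma FDR 0.0525). That call turned with the processing: the FDR was below the threshold in 4 of 13 alternatives, among them the fit without A2780 replicate 2 (log2FC -0.30, FDR 0.0358). KARS, for lysine, missed it on the other side (log2FC 0.25 ± 0.10, limma FDR 0.0529) and was likewise called, as higher, in 4 of 13 alternatives. With the pair fitted alone 11 synthetases were lower and 3 higher.

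In the PEA pair, whose AARS difference was one of those that chose AARS, values are given as a description and no p-value is printed. A call there uses the same limma FDR threshold, but only marks a difference that is large beside its spread. The counts of calls in the PEA and PEO pairs include AARS and are not read as a test. The synthetases differed in both directions. Of the 20, 7 were called higher in PEA2 and 4 lower, beside 32.5% and 29.4% of all genes, and the median log2FC was 0.07. After quantile normalization, which moved the median of all genes from 0.01 to -0.10, 6 were called higher and 7 lower, so that the balance turned, and the median was -0.11. AARS was at 7.05, 7.29 and 7.03 in PEA1 and 7.92, 8.02 and 8.19 in PEA2 (log2FC 0.92 ± 0.10). CARS had the largest difference of any of the 20 cytosolic synthetases in any pair, from 4.27, 4.13 and 4.31 in PEA1 to 6.49, 6.41 and 6.24 in PEA2 (log2FC 2.14 ± 0.14, 4.42-fold). TARS, for threonine, went from 8.17, 8.24 and 8.27 in PEA1 to 9.41, 9.29 and 9.08 in PEA2 (log2FC 1.04 ± 0.09). In these 3 genes every PEA2 library was above every PEA1 library. FARSA, the catalytic subunit for phenylalanine, and DARS, for aspartate, had log2FC values of 0.99 ± 0.15 and 0.94 ± 0.13, whereas FARSB, the other subunit of the phenylalanine enzyme, was at 0.09 ± 0.12 and was not called. GARS (glycine, 0.45 ± 0.13) and KARS (0.42 ± 0.10) were also called higher, GARS not after quantile normalization.

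NARS was lower in PEA2, as in CP70, at 8.12, 8.18 and 8.13 in PEA1 and 7.01, 7.59 and 7.30 in PEA2 (log2FC -0.85 ± 0.11). The PEA2 libraries spread widely but stayed below those of PEA1. IARS (-0.76 ± 0.12), SARS (-0.48 ± 0.09) and HARS (histidine, -0.35 ± 0.13) were lower too. The HARS call was lost in 4 of 13 alternatives, including the fits without PEA1 replicate 2 and without PEA2 replicate 3. The remaining 9 synthetases lay between -0.16 (MARS) and 0.25 (QARS).

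In the PEO pair, the other contrast that chose AARS and likewise only described, 4 of 20 synthetases were called higher in PEO4 and 6 lower, beside 19.6% and 21.9% of all genes, with a median log2FC of -0.13. AARS was at 7.73, 7.87 and 7.94 in PEO1 and 7.08, 7.16 and 7.29 in PEO4 (log2FC -0.67 ± 0.10). LARS had a slightly larger decrease, at 8.20, 8.17 and 7.99 in PEO1 and 7.45, 7.47 and 7.35 in PEO4 (log2FC -0.69 ± 0.10). The libraries of the 2 lines did not overlap for either gene. VARS had the largest positive difference, from 6.32, 6.15 and 6.45 in PEO1 to 7.61, 7.42 and 7.50 in PEO4 (log2FC 1.21 ± 0.11, 2.31-fold). MARS (-0.59 ± 0.09), EPRS (-0.49 ± 0.07), IARS (-0.37 ± 0.12) and TARS (-0.32 ± 0.09) were also lower, the IARS call being lost without PEO1 replicate 1 or PEO4 replicate 3. WARS (tryptophan, 0.71 ± 0.10), YARS (0.57 ± 0.10) and QARS (0.48 ± 0.13) were also higher.

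**Figure D1:**
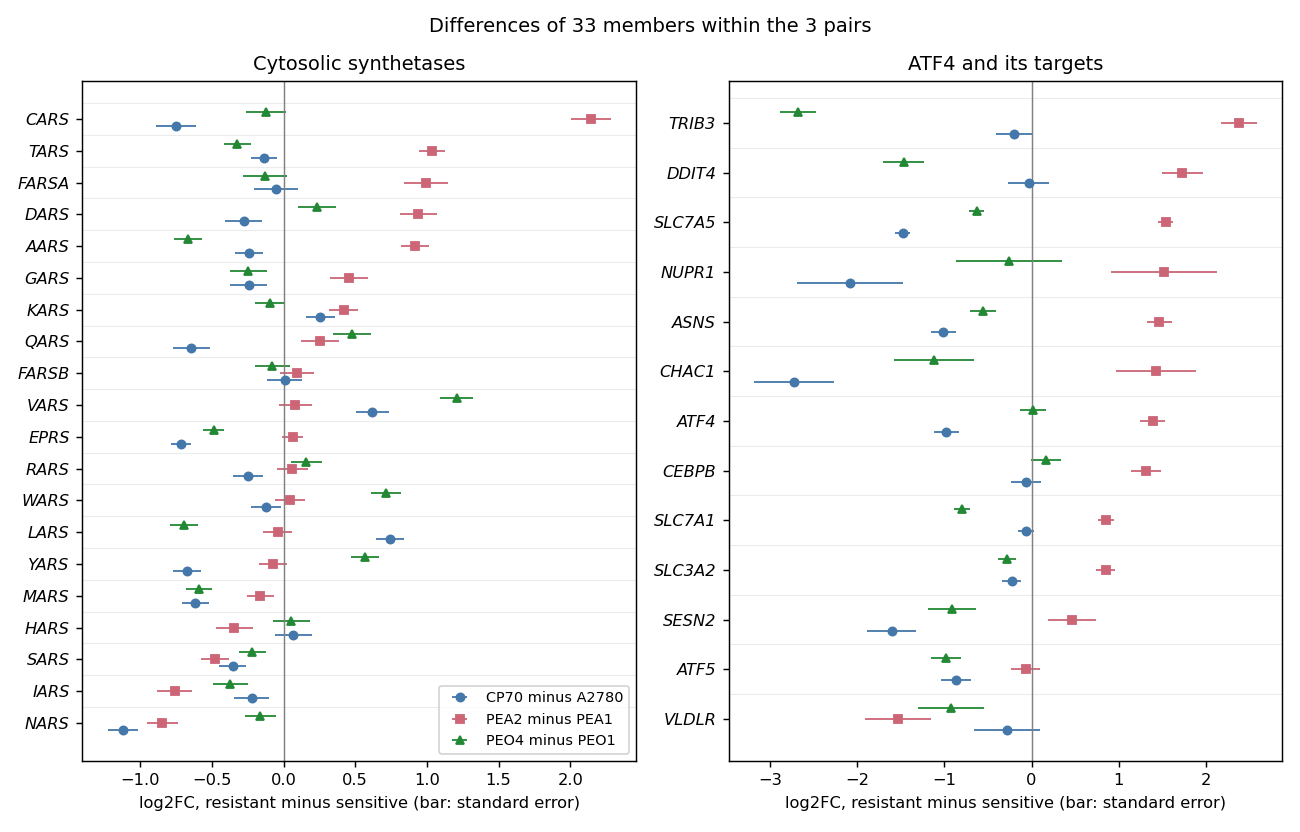
Log2FC (x axis, resistant minus sensitive line, log2 scale) of the 20 cytosolic synthetases (left) and of ATF4 and its 12 targets (right) in the 3 pairs, with bars for the SE of a limma fit over 18 libraries, 3 per line; genes are ordered by the PEA pair, and the 2 panels have different x scales. CARS and TRIB3 lie furthest right in the PEA pair (2.14 and 2.38), and TRIB3 (-2.68, PEO pair) and CHAC1 (-2.73, A2780 pair) furthest left.

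The synthetases fall into class I and class II by the fold of the catalytic domain, with 10 genes listed in each. EPRS, the double enzyme, was counted in class I only. In the A2780 pair 2 of 10 class I genes were higher and 5 lower, and 2 of 10 class II genes were lower. In the PEA pair the calls lay mostly in class II, with 6 higher and 3 lower, against 1 higher (CARS) and 1 lower (IARS) in class I. In the PEO pair class I held 4 higher and 4 lower calls and class II 2 lower (AARS and TARS). The shares of all genes called higher and lower were 22.2% and 17.7% in CP70, 32.5% and 29.4% in PEA2 and 19.6% and 21.9% in PEO4. The difference between the classes was not tested. Of the 12 synthetases commonly listed as ATF4 targets 1 was higher and 6 lower in CP70, 4 higher and 3 lower in PEA2, and 2 higher and 6 lower in PEO4, and of the 8 others 1 was higher and 1 lower in CP70, 3 higher and 1 lower in PEA2 and 2 higher in PEO4.

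ATF4 and its targets outside the synthetases were lower in CP70 or did not pass the test. All 13 log2FC values were negative, 7 of the 13 genes were lower (17.7% of all genes were) and 0 were higher by limma, also at an unadjusted p below 0.05 and with voom weights, and the median was -0.87. ATF4 was at 8.47, 8.07 and 8.39 in A2780 and 7.32, 7.34 and 7.34 in CP70 (log2FC -0.98 ± 0.15, limma FDR 1.69e-05). ASNS, asparagine synthetase and a classical target of ATF4, was at 6.31, 6.42 and 6.33 in A2780 and 5.35, 5.28 and 5.41 in CP70 (log2FC -1.01 ± 0.15, limma FDR 1.17e-05). SLC7A5, the light chain of the transporter LAT1 for large neutral amino acids, was at 8.59, 8.51 and 8.49 in A2780 and 7.10, 6.97 and 7.08 in CP70 (log2FC -1.48 ± 0.09, limma FDR 1.65e-11). For all 3 genes the CP70 libraries were below every A2780 library and spread less than the difference between the lines.

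CHAC1, an enzyme that breaks down glutathione, had the largest decrease of all 33 members in this pair. It was at 3.31, 3.45 and 3.12 in A2780 and 0.30, 1.17 and 0.24 in CP70 (log2FC -2.73 ± 0.46, limma FDR 6.34e-05). SESN2, a leucine sensor that restrains the growth kinase complex mTORC1, fell by 1.60 (limma FDR 9.57e-05), and ATF5, a transcription factor related to ATF4, by 0.87 (FDR 0.000334). NUPR1, a small stress-induced chromatin protein, had a log2FC of -2.08 ± 0.61 (limma FDR 0.0096) but rested on 14 reads in the 3 A2780 libraries and 5 in the 3 CP70 libraries. The ratio of its CPM was 0.245 (95% exact interval 0.0690 to 0.720, counting error only), and the gene was no longer called when A2780 replicate 1 (FDR 0.0528) or CP70 replicate 2 (FDR 0.0860) was left out of the fit. SLC3A2 (-0.23), VLDLR (-0.28), TRIB3 (-0.20), SLC7A1 (-0.06), CEBPB (-0.06) and DDIT4 (-0.03) did not pass the test. With the further requirement of a log2FC beyond 2 in either direction, which the study used for its own lists, 2 of the 33 members remained in the A2780 pair (CHAC1 and NUPR1), beside 9.06% of all genes.

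In PEA2 these 13 genes stood mostly higher than in PEA1. Of the 13, 10 were called higher and 1 lower, beside 32.5% and 29.4% of all genes. The median log2FC was 1.39 (1.19 after quantile normalization), against 0.01 for all genes. Nothing is read from this count of calls, since the contrast chose AARS. ATF4 was at 7.49, 7.56 and 7.24 in PEA1 and 8.38, 9.13 and 8.95 in PEA2 (log2FC 1.39 ± 0.15). ASNS was at 4.47, 4.70 and 4.77 in PEA1 and 5.96, 6.18 and 6.21 in PEA2 (log2FC 1.47 ± 0.15). No library of one line reached the range of the other for either gene. Among the transporters, SLC7A5 went from 8.59, 8.61 and 8.67 in PEA1 to 10.17, 10.05 and 10.26 in PEA2 (log2FC 1.54 ± 0.09, 2.91-fold). Its heavy chain SLC3A2 (0.85 ± 0.11) and SLC7A1, the carrier for arginine and lysine (0.85 ± 0.09), had smaller differences.

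TRIB3, a pseudokinase that dampens ATF4 and AKT signalling, had the largest positive difference of the 33 members. Its levels were 5.28, 4.78 and 4.97 in PEA1 and 7.27, 7.49 and 7.40 in PEA2 (log2FC 2.38 ± 0.21, 5.2-fold). DDIT4, an mTORC1 inhibitor also known as REDD1, was at 3.49, 3.27 and 3.56 in PEA1 and 5.31, 5.27 and 4.93 in PEA2 (log2FC 1.73 ± 0.23). Neither gene had overlapping libraries. CEBPB, a partner of ATF4 on DNA, was at 1.31 ± 0.17 and CHAC1 at 1.43 ± 0.46, the CHAC1 call being lost without PEA1 replicate 1. NUPR1 (1.52 ± 0.61) had overlapping libraries and rested on 1 read in PEA1 and 10 in PEA2 (95% exact interval of the ratio of CPM 0.853 to 260), and its call was lost in 8 of 13 alternatives. SESN2 (0.46 ± 0.28) and ATF5 (-0.07 ± 0.17) were not called. The 1 gene called lower was VLDLR, a lipoprotein receptor, at 5.94, 6.20 and 5.64 in PEA1 and 4.69, 3.97 and 4.53 in PEA2 (log2FC -1.53 ± 0.38). Beyond a log2FC of 2 stood 2 of the 33 members (CARS and TRIB3), beside 14.1% of all genes.

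In PEO4 the targets stood mostly lower than in PEO1 while ATF4 mRNA differed by less than the spread between libraries. Of the 13 genes 8 were called lower, beside 21.9% of all genes, and the other 5 were not called, with a median log2FC of -0.80 against -0.02 for all genes; nothing is read from this count either. ATF4 was at 7.93, 7.87 and 7.64 in PEO1 and 7.88, 7.80 and 7.83 in PEO4 (log2FC 0.02 ± 0.15), with overlapping libraries. TRIB3 was at 4.95, 4.57 and 5.09 in PEO1 and 2.68, 1.66 and 2.22 in PEO4 (log2FC -2.68 ± 0.21, 0.156-fold), and was the 1 member beyond a log2FC of 2, beside 6.22% of all genes. DDIT4 was at 6.48, 6.48 and 6.87 in PEO1 and 5.20, 4.93 and 5.29 in PEO4 (log2FC -1.46 ± 0.23). These were the 2 largest decreases among the 13 genes in this pair, and neither had overlapping libraries.

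ATF5 (-0.98 ± 0.17), SESN2 (-0.91 ± 0.28) and the transporter genes SLC7A1 (-0.80 ± 0.09), SLC7A5 (-0.63 ± 0.09) and SLC3A2 (-0.28 ± 0.11) were also called lower in PEO4. ASNS was at 5.19, 5.66 and 5.55 in PEO1 and 5.22, 4.77 and 4.75 in PEO4 (log2FC -0.55 ± 0.15). Its replicate 1 libraries overlapped, although the gene was called. The SLC3A2 call was lost in 6 of 13 alternatives, 5 of them fits without 1 library, and the SESN2 call without PEO1 replicate 3 or PEO4 replicate 2. CHAC1 varied more among the PEO1 libraries (1.29, 3.54 and 3.06) than between the lines and was not called (-1.12 ± 0.46), but it was called in 5 of 13 alternatives, among them the fit without PEO1 replicate 1, which was the low library. VLDLR (-0.92 ± 0.38) was not called either, but was called lower in 5 of 13 alternatives, among them the fits without PEO1 replicate 3 and without PEO4 replicate 2. NUPR1 (-0.26 ± 0.61) and CEBPB (0.17 ± 0.17) were not called.

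**Figure D2:**
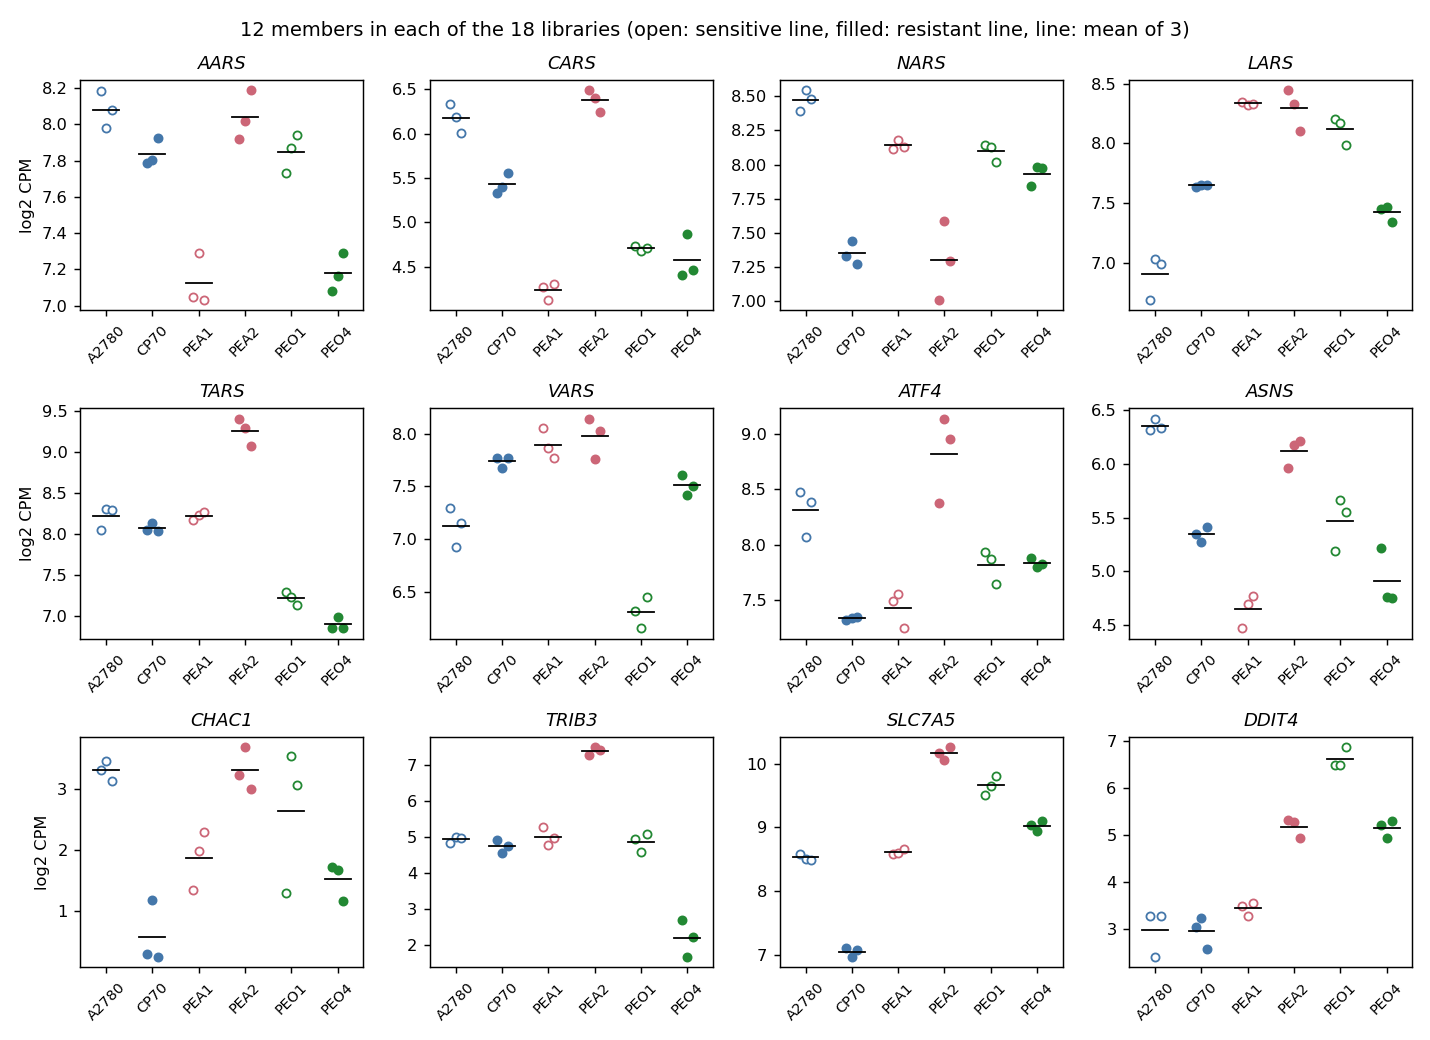
Level (y axis, log2 CPM, a separate scale for each gene) of 12 members in each of the 18 libraries, by line (x axis); open circles are the sensitive and filled circles the resistant line of a pair, and black lines are means of 3. ASNS and SLC7A5 fall from A2780 to CP70, stand higher in PEA2 than in PEA1 and lower in PEO4 than in PEO1, and TRIB3 stands at a like level in A2780, CP70, PEA1 and PEO1 (means 4.73 to 5.01), high in PEA2 (7.39) and low in PEO4 (2.19).

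Across the 33 members, 2 were called higher and 14 lower in CP70 (22.2% and 17.7% of all genes). In PEA2 17 were called higher and 5 lower (32.5% and 29.4%), and in PEO4 4 higher and 14 lower (19.6% and 21.9%). After quantile normalization the PEA2 split was 15 higher and 8 lower. The resistant libraries all lay on one side of the sensitive ones as follows: above for 2 and below for 17 members in the A2780 pair (28.6% and 25.9% of all genes), above for 16 and below for 5 in the PEA pair (31.8% and 30.8%), and above for 6 and below for 15 in the PEO pair (27.8% and 29.8%).

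Some members separated fully in opposite directions in different pairs, as many of all genes did, so that nothing particular to the members is read from these counts. AARS, CARS, GARS, ATF4, ASNS, CHAC1 and SLC7A5 (7 of 33) had all CP70 libraries below A2780 and all PEA2 libraries above PEA1, a pattern of opposed directions that 16.5% of all genes showed in 1 order or the other. Between the PEA and PEO pairs 7 of 33 members were opposed (AARS, TARS, DDIT4, TRIB3, SLC3A2, SLC7A1 and SLC7A5), beside 19.9% of all genes, and each was higher in PEA2 and lower in PEO4. Between the A2780 and PEO pairs 3 of 33 were opposed, beside 18.2% of all genes. These 3 were synthetases, YARS and QARS (lower in CP70, higher in PEO4) and LARS (higher in CP70, lower in PEO4). The shares of all genes that involve the PEA pair include genes at 0 reads in all its libraries. AARS was chosen by its values in the PEA and PEO pairs, and the differences between pairs were not tested.

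The mean of A2780 and CP70 was next compared with the mean of the 4 serous lines, a contrast that is independent of the differences within pairs. The FDR here measures the spread between libraries of a line, not between lines, so it does not test a difference between kinds of line. Of the 33 members 16 were higher in the A2780 pair and 10 lower, beside 36.9% and 43.1% of all genes; after quantile normalization, which moved the median log2FC of all genes by 0.28 (from -0.07 to 0.20), the split was 19 and 7. The synthetases stood mostly higher in the A2780 pair, with 14 of 20 higher and 3 lower and a median log2FC of 0.33 (0.47 after quantile normalization). YARS had the largest difference. It was at 8.35 ± 0.07 (SD, n = 3) in A2780 and 7.68 ± 0.02 in CP70, and at 6.56 ± 0.07, 6.49 ± 0.23, 6.72 ± 0.04 and 7.29 ± 0.09 in PEA1, PEA2, PEO1 and PEO4 (log2FC 1.25 ± 0.06, limma FDR 1.1e-13). Every A2780 and CP70 library exceeded every serous library. IARS (0.90 ± 0.08, limma FDR 9.31e-10), FARSA (0.84 ± 0.09, limma FDR 8.68e-08) and CARS (0.83 ± 0.08, limma FDR 1.95e-08) followed, and AARS was higher by 0.41 (limma FDR 2.79e-06). For CARS and AARS, but not for IARS and FARSA, the line means of the A2780 pair and the serous lines overlapped. AARS was at 8.04 in PEA2 and 7.85 in PEO1, against 7.84 in CP70. CARS was at 6.38 in PEA2, against 6.18 in A2780 and 5.43 in CP70. WARS (-0.91 ± 0.06, limma FDR 5.31e-11), LARS (-0.76 ± 0.06, limma FDR 4.3e-10) and DARS (-0.22 ± 0.08, limma FDR 0.016) were lower. For LARS and DARS, but not for WARS, the line means overlapped. LARS was at 7.65 in CP70 against 7.42 in PEO4, and DARS at 6.90 in A2780 against 6.56 in PEA1. The DARS call was lost after quantile normalization and without A2780 replicate 1 or CP70 replicate 1. NARS, SARS and VARS did not pass the test.

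ATF4 and its targets leaned the other way, with 2 of 13 higher in the A2780 pair and 7 lower, beside 36.9% and 43.1% of all genes. Their median log2FC was -0.40 (-0.14 after quantile normalization). SESN2 was 4.06-fold higher (log2FC 2.02 ± 0.17, limma FDR 1.06e-09) and ASNS 1.48-fold higher (log2FC 0.56 ± 0.09, limma FDR 9.63e-06). For ASNS, but not for SESN2, the line means overlapped, with ASNS at 6.11 in PEA2 against 5.34 in CP70. VLDLR (-2.72 ± 0.23, limma FDR 1.22e-09), DDIT4 (-2.13 ± 0.14, FDR 2.84e-11), CEBPB (-2.09 ± 0.11, FDR 2.43e-13) and SLC7A5 (-1.58 ± 0.05, FDR 2.66e-16) were lower, as were SLC3A2, NUPR1 and ATF5, the calls of NUPR1 and ATF5 being lost after quantile normalization. The line means of NUPR1 and ATF5 also overlapped. NUPR1 was at 0.58 in A2780 against 0.46 in PEA2, and ATF5 at 5.19 in A2780 against 4.62 in PEA2. ATF4 itself had a log2FC of -0.15 ± 0.09 and did not pass the test (limma FDR 0.122).

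Other genes of the pathway were read from lists. Among the 4 eIF2 kinases, the widest differences lay in different genes in the PEA and PEO pairs. EIF2AK4 (GCN2), which senses uncharged tRNA, was at 8.40, 8.35 and 8.14 in PEO1 and 7.33, 7.16 and 7.22 in PEO4 (log2FC -1.06 ± 0.11), and its log2FC was 0.10 ± 0.11 in the A2780 pair (limma FDR 0.494) and -0.02 ± 0.11 in the PEA pair. EIF2AK3 (PERK) was at 4.09, 4.18 and 4.74 in PEA1 and 5.29, 5.81 and 5.56 in PEA2 (log2FC 1.22 ± 0.21). EIF2AK2 (PKR), which is itself induced by interferon, was at 7.46, 7.42 and 7.15 in PEO1 and 8.86, 8.94 and 8.75 in PEO4 (2.83-fold). In these 3 genes the libraries of the 2 lines given by value did not overlap. EIF2AK1 (HRI) was higher in CP70 (log2FC 0.52 ± 0.13, limma FDR 0.00373) and was at 0.98 ± 0.13 in the PEA pair. Of the 9 kinases and regulators 3 were higher and 2 lower in CP70, 5 and 1 in PEA2, and 1 and 3 in PEO4. The shares of all genes were 22.2% and 17.7%, 32.5% and 29.4%, and 19.6% and 21.9%. GCN1L1 (GCN1), which GCN2 needs to sense tRNA, had the lowest log2FC in the PEA pair (-0.78 ± 0.10), and IMPACT, an inhibitor of GCN2, in the A2780 pair (-0.72 ± 0.22, limma FDR 0.0126).

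A second list held 27 further genes commonly given as ATF4 targets, of which 23 were in the table. In CP70 3 were higher and 11 lower, in PEA2 11 higher and 4 lower and in PEO4 2 higher and 10 lower, and the medians were -0.41, 0.22 and -0.24. Over all genes 22.2% were higher and 17.7% lower in CP70, 32.5% and 29.4% in PEA2 and 19.6% and 21.9% in PEO4. GDF15, a secreted stress cytokine, had the most extreme difference in 2 pairs. It had 44 to 64 reads in the A2780 libraries and 1 to 6 in the CP70 libraries (log2FC -5.03 ± 0.66, limma FDR 3.19e-06). It had 1 to 4 reads in the PEA1 libraries and 162 to 452 in the PEA2 libraries, and at most 3 in any PEO1 or PEO4 library. SLC1A4, a carrier for alanine, serine and cysteine, was the gene with the highest log2FC in CP70 (2.35 ± 0.23, limma FDR 6.26e-08). PYCR1, an enzyme of proline synthesis, had the lowest in PEO4, with 22 to 122 reads in the PEO1 libraries and 3 to 7 in the PEO4 libraries (log2FC -2.70 ± 0.39), and was at 0 reads in all A2780 and CP70 libraries. ADM2, a peptide hormone gene, had the highest in PEO4 (1.92 ± 0.51), and ALDH1L2, a mitochondrial folate enzyme, the lowest in PEA2 (-0.97 ± 0.34). ADM2 rested on few reads, 3 to 11 in the PEO1 libraries and 15 to 17 in the PEO4 libraries.

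The ATF6 and XBP1 branch of the unfolded protein response, which answers misfolded protein in the endoplasmic reticulum without ATF4, was read in the same way. Of its 16 genes 12 were called higher and 1 lower in PEA2 (median log2FC 0.61), beside 32.5% and 29.4% of all genes. In CP70 2 were higher and 7 lower (median -0.20), beside 22.2% and 17.7%, and in PEO4 4 higher and 3 lower (median 0.13), beside 19.6% and 21.9%. ERN1, the sensor kinase IRE1, had the highest value in PEA2 (2.72 ± 0.24), and ATF6, the sensor of the other arm, the lowest (-0.52 ± 0.10). HERPUD1, which takes part in the removal of misfolded protein, had the lowest in CP70 (-1.19 ± 0.14, limma FDR 7.42e-07) and DNAJB9, a co-chaperone of BiP, the highest (0.87 ± 0.24, limma FDR 0.00589). In PEO4 CRELD2, a secreted protein of the endoplasmic reticulum, was the lowest (-1.05 ± 0.23) and HSPA5, BiP itself, the highest (0.64 ± 0.13).

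The mitochondrial synthetases, which charge the tRNAs of the organelle, were read beside those of the cytosol. Of 16 genes in the table (17 listed) 1 was higher and 7 lower in CP70, beside 22.2% and 17.7% of all genes. In PEA2 5 were higher and 5 lower, which is near the 32.5% and 29.4% of all genes. In PEO4 2 were higher and 1 lower, beside 19.6% and 21.9%. VARS2 was the highest in PEA2 (3.33 ± 0.20) and WARS2 the lowest (-1.94 ± 0.21). PARS2 was the lowest in CP70 (-1.41 ± 0.32, limma FDR 0.00122) and HARS2 the highest (0.63 ± 0.19, limma FDR 0.0102), and FARS2 was the highest in PEO4 (1.37 ± 0.22). The multisynthetase complex is a particle of synthetases and scaffold proteins. Beside the same shares of all genes, it held 2 higher and 3 lower of 11 genes in CP70, 4 and 1 in PEA2 and 1 and 4 in PEO4. Its scaffold gene AIMP2 was the highest in CP70 (0.87 ± 0.16, limma FDR 0.000203).

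WARS is induced by interferon as well as listed with ATF4, so interferon-stimulated genes were read beside it. WARS was at 6.90, 7.20 and 7.16 in PEO1 and 7.81, 7.70 and 7.89 in PEO4. Of 12 interferon-stimulated genes 10 were called higher in PEO4, beside 19.6% of all genes, with a median log2FC of 3.82. The highest was MX1 (5.84 ± 0.43) and the lowest of those called IRF1 (0.90 ± 0.24). In PEA2, where the log2FC of WARS was 0.04 ± 0.10, 7 were higher and 1 lower (median 0.80), beside 32.5% and 29.4% of all genes. In CP70, where the log2FC of WARS was -0.12 ± 0.10, 5 were higher and 4 lower (median -0.09), beside 22.2% and 17.7%. The extremes were GBP1 (-1.95 ± 0.22) and IDO1 (0 reads in every PEA1 library, 62 to 125 in the PEA2 libraries) in PEA2, and IFIT1 (-1.38 ± 0.20, limma FDR 8.7e-06) and GBP2 (0 to 3 reads in the A2780 libraries, 12 to 18 in the CP70 libraries) in CP70. The part of interferon in the WARS difference was not tested.

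**Figure D3:**
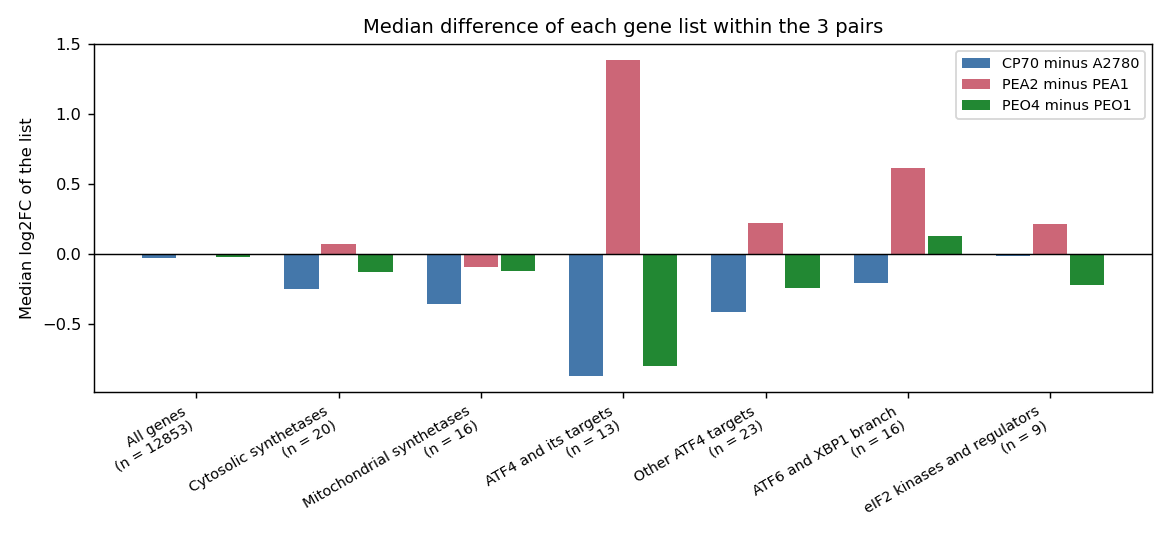
Median log2FC (y axis, resistant minus sensitive line, bars from 0) of each gene list (x axis, n genes in the table) in the 3 pairs. ATF4 and its targets have medians of -0.87, 1.39 and -0.80 in the A2780, PEA and PEO pairs, and the cytosolic synthetases -0.24, 0.07 and -0.13 (the PEA value being -0.11 after quantile normalization); the medians of all genes are -0.02, 0.01 and -0.02.

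Over the means of the 6 lines the gene most like AARS among the members was ASNS (Pearson r 0.92), followed by CARS (0.86), with FARSA and SESN2 at 0.66, ATF4 at 0.58 and WARS lowest at -0.63. Among the 8061 genes with a mean log2 level above 4 the 5 most like AARS were GTSE1 (0.993), RFC4 (0.988), LZTR1 (0.980), MKLN1 (0.973) and PHF5A (0.971), none of them a synthetase, and the median over these genes was 0.02. With 6 points, 2 from each pair, these are descriptions. By mean level AARS was highest in A2780 (8.08 ± 0.10) and PEA2 (8.04 ± 0.13), then PEO1 (7.85 ± 0.11) and CP70 (7.84 ± 0.08), and lowest in PEO4 (7.18 ± 0.11) and PEA1 (7.12 ± 0.14). Within each of these 3 groups of neighbours the means differed by less than the SD.

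The members were last read by the promoter element shown above. All 11 genes with TGATGNAA in a promoter had a negative log2FC in the A2780 pair (median -0.24) and in the PEO pair (median -0.37), and 8 of 11 a positive one in the PEA pair (median 0.85). The 3 exceptions in the PEA pair were NARS, IARS and MARS, all synthetases. Of the 17 matched genes without it 14 were negative in the A2780 pair, 11 in the PEO pair and 13 were positive in the PEA pair (medians -0.25, -0.13 and 0.25). By calls, 5 of the 11 genes with the element were lower in CP70 and 7 of the 17 without it, beside 17.7% of all genes. TRIB3 and SLC7A5, which had some of the widest differences, held no match in these 300 bases. The genes with and without the element were not tested against each other.

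**Figure D4:**
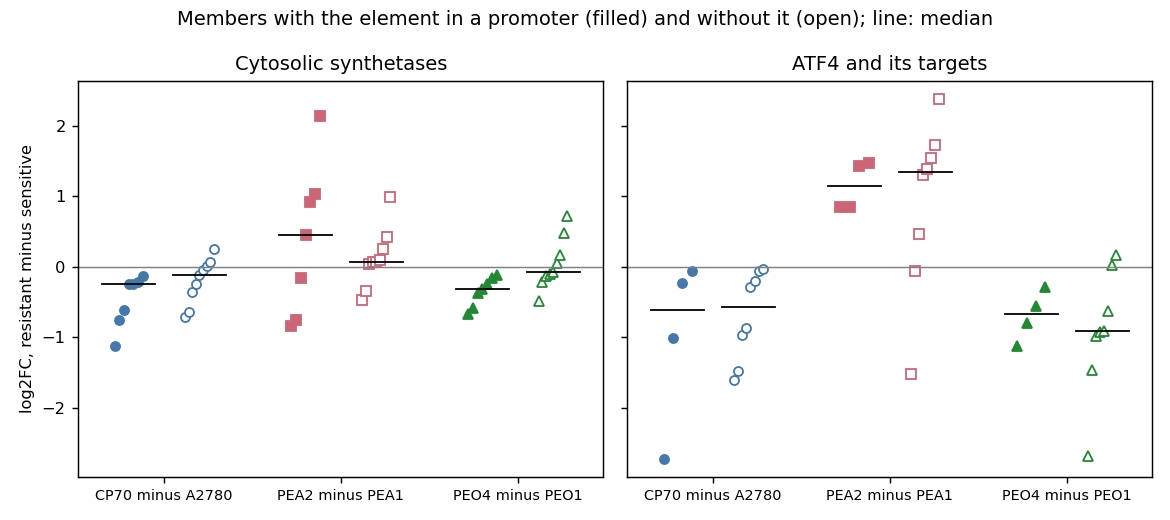
Log2FC (y axis, resistant minus sensitive line) of the synthetases (left) and of ATF4 and its targets (right) in the 3 pairs (x axis), for genes with the element in a RefSeq promoter (filled, 7 and 4 genes) and matched genes without it (open, 9 and 8 genes); lines are medians. All filled points lie below 0 in the A2780 and PEO pairs, and 3 synthetases of the filled set lie below 0 in the PEA pair.

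Some members share their place with other genes. By the GRCh37 annotation AARS overlaps DDX19B, KARS overlaps TERF2IP, YARS overlaps S100PBP, WARS overlaps WDR25, HARS overlaps HARS2 and WDR55, MARS overlaps DDIT3 and ARHGAP9, and ATF5 overlaps NUP62 and IL4I1, in each case on the opposite strand, and HARS also overlaps DND1 on its own strand. The library kit keeps strand, but whether the counting used it is not given in the sources used here, so that reads in these overlaps cannot be assigned with certainty. AARS lies on chromosome 16 (70285886 to 70323610, minus strand), CARS on chromosome 11 (3022152 to 3078843, minus), ASNS on chromosome 7 (97480989 to 97501854, minus), TRIB3 on chromosome 20 (343479 to 378203, plus), SLC7A5 on chromosome 16 (87863629 to 87903113, minus) and ATF4 on chromosome 22 (39915700 to 39918688, plus), all on GRCh37.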

How the data were processed

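RNA-seq libraries of rRNA-depleted total RNA were made with a directional kit, 3 per line. By the study's methods and the labels' processing notes, Bowtie2, featureCounts and limma were used on hg19; versions and the strand setting are not given in the sources used here. The deposited values are log2 CPM, which the authors computed with 0.5 reads added to each count. The whole reads behind 100% of the values were recovered (tolerance 0.01), and depth was 1344098 to 7067336 reads on the listed genes.

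The log2 values were fitted with limma 3.58.1 in R 4.3.3, with 1 mean per line over all 18 libraries, empirical Bayes moderation with a trend and Benjamini-Hochberg adjustment over 12853 genes, after a test on simulated data. The labels do not say that replicates were separate cultures, so FDR values measure only the spread between these libraries. Replicate pairs of every line differed by more than sampling noise (chi-square per gene 1.74 to 13.7). Replicate numbers did not pair the libraries.

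The members and lists were chosen with earlier results of these data known. Since AARS was chosen by its PEA and PEO values, those contrasts are described without p-values. All members in the table are named, and of each other list the genes with the highest and lowest log2FC among those called in a pair, except for 1 result that is not reported here. Intervals cover counting error only. Gene positions are from GENCODE v44 lifted to GRCh37. Alternatives were fits of each pair alone, a filter on low values, quantile normalization, a replicate block, no variance trend, voom weights, 2 reads added, and leaving out each library.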

Additional observations from a re-analysis of the deposited data

Results flagged for a closer look

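In 17 cases all resistant libraries of 1 pair lay on one side of the sensitive ones and all resistant libraries of another pair on the other side. The differences between the pairs' log2FC values, the second pair minus the first, were not tested, and no explanation was weighed. Such a pattern was shown by 16.5% to 19.9% of all genes between 2 pairs. The shares that involve the PEA pair include genes at 0 reads in all its libraries.

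From the A2780 to the PEA pair the log2FC was higher by 4.16 for CHAC1, 3.02 for SLC7A5, 2.90 for CARS, 2.48 for ASNS, 2.37 for ATF4, 1.16 for AARS and 0.70 for GARS. From the A2780 to the PEO pair it changed by 1.25 for YARS, 1.12 for QARS and -1.44 for LARS. From the PEA to the PEO pair it changed by -5.06 for TRIB3, -3.20 for DDIT4, -2.17 for SLC7A5, -1.65 for SLC7A1, -1.59 for AARS, -1.36 for TARS and -1.13 for SLC3A2. AARS was chosen by its values in the last 2 pairs.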

How the results depend on the processing

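Counts of called members stayed within 1.5 times the reported count under the alternatives run, with these exceptions. Fitted alone, the A2780 pair gave 11 lower synthetases in place of 7. At a log2FC beyond 1, 6 members remained in the A2780 pair (0 higher, 6 lower), 11 in the PEA pair (10 higher, 1 lower) and 3 in the PEO pair (1 higher, 2 lower). Beyond 2, the A2780 pair held 1 member with 2 reads added and 1 to 2 when 1 library was left out (1 without A2780 replicate 1 or CP70 replicate 2). Quantile normalization gave 8 lower members in the PEA pair (15 higher), of which 7 were synthetases in place of 4. The eIF2 kinase list gave 3 to 5 calls in the A2780 pair with 1 library left out (3 without CP70 replicate 3), and the mitochondrial synthetases 6 calls in the PEO pair fitted alone. With TGATGCAA the promoter count was 7.

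Changes of sign were all in genes that did not pass the test as reported. In the A2780 pair these were, with voom weights, FARSB (-0.0019) and DDIT4 (0.0394) and, with 1 library left out, FARSA (-0.1539 to 0.003), FARSB (-0.0928 to 0.1621), HARS (-0.0587 to 0.1613), DDIT4 (-0.321 to 0.1582), CEBPB (-0.1342 to 0.011) and VLDLR (-0.5327 to 0.0324). Between the A2780 pair and the serous lines they were, after quantile normalization, SARS (0.0991), CHAC1 (0.8252, then called at an FDR of 0.0487), TRIB3 (0.3372) and SLC7A1 (0.1145) and, with 1 library left out, VARS (-0.0345 to 0.0591) and TRIB3 (-0.0963 to 0.0305). In the PEA pair quantile normalization also turned EPRS (-0.1967, then called lower), FARSB, RARS, VARS and WARS negative, and leaving out 1 library turned ATF5, LARS, RARS, VARS and YARS, and ATF4 in the PEO pair. Quantile normalization moved the median of all genes by -0.11 in the PEA pair and 0.28 in this contrast; the cause of the other changes was not tested.

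Libraries with the same replicate number shared only a number: their deviations correlated at -0.0354 to 0.0483. Adding that number as a block term gave 17, 22, 20 and 26 called members in the A2780, PEA and PEO pairs and the contrast with the serous lines; it added AARS in the A2780 pair and CHAC1 and VLDLR in the PEO pair and removed no called member. Depth limits NUPR1, VLDLR and CHAC1 most, whose lowest libraries held few reads.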
